A study of Mus musculus with 9 samples.

Results

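The enzymes that place, copy and remove cytosine methylation were followed through 9 RNA libraries of mouse pancreatic ductal adenocarcinoma (PDAC) cells. They were chosen by name, as the known writers of DNA methylation and the genes of its removal: Dnmt1, Uhrf1, Uhrf2, Dnmt3a, Dnmt3b, Dnmt3l, Tet1, Tet2, Tet3 and Tdg. All 10 were found by Ensembl identifier among the 47643 genes of the count tables and had at least 1 count, and 9 were among the 14105 genes with enough counts to be tested. Tet1, with 79 counts in all libraries together, was the one that was not.

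The libraries were made from cells sorted by FACS out of PDAC tumors of KPF and KPYYF mice. The alleles of KPF mice included Trp53 frt/+, Pdx-Flp and R26 FSF-CreER/Dual, and KPYYF mice carried all alleles of KPF mice plus Yap flox/flox. Pdx-Flp directs Flp recombinase to the pancreas, where it removes a Trp53 copy and starts GFP and a tamoxifen-dependent CreER in the same cells. A tamoxifen diet, given once tumors could be felt, then turns GFP off and tdTomato (Tm) on and, in KPYYF cells, deletes Yap. The 6 KPF libraries were of GFP+Yap+ cells and the 3 KPYYF libraries of Tm+Yap− cells, and the study's text describes the mice of both groups as tamoxifen-treated. The study's text also places the isolation of the sequenced cells in relapsed nodules. It describes such nodules as highly proliferative Tm+Yap− growth in KPYYF mice after extended tamoxifen. Genotype, Yap status and reporter color, that is whether CreER had acted in the sorted cells, changed together, and with them any origin in a relapsed nodule. Their parts cannot be told apart. Libraries are named here by mouse number: 4269, 4435, 4504h, 4504s, 4515 and 4601 for KPF, and 4449, 4891 and 4938 for KPYYF. KPF 4504h and 4504s bear the same mouse number, and the labels give for no mouse its age, tamoxifen treatment or time on the diet.

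Methyl groups on the cytosine of CG dinucleotides are copied to the new strand after DNA replication by Dnmt1, which Uhrf1 brings to hemimethylated sites. New methylation is set by Dnmt3a and Dnmt3b, and Dnmt3l, which has no catalytic activity of its own, stimulates both in germ cells and early embryos. Tet1, Tet2 and Tet3 oxidize the methyl group, and Tdg cuts out the most oxidized forms so that base excision repair can restore an unmodified cytosine. Methylation of a CG-rich promoter goes with silencing of its gene, and Dnmt3b and Dnmt3l are themselves abundant in pluripotent cells and largely silent in adult tissues.

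Each library had 8116539 to 9635514 reads on genes, which was 37.3 to 42.0% of its reads. Yap1, the gene deleted in KPYYF, was at 41.8 to 151 CPM (read counts per gene scaled to a common library size with TMM factors) in KPF and at 0.712 to 7.12 CPM in KPYYF, which was a log2 fold change of -4.79 (adjusted p = 0.0159). Ductal epithelial markers summed to 3507 to 9161 CPM in KPF and 622 to 1879 CPM in KPYYF libraries, and 3 of the 8 fell with an adjusted p under the 0.05 threshold (Krt18, Cdh1 and Muc1, log2 fold changes -2.49, -2.92 and -4.11). In 9 fits with a library left out, these calls were lost in 2, 5 and 7, in each case including the fits without KPYYF 4891 and without 4938 (adjusted p up to 0.0545, 0.112 and 0.141). The KPF library 4601 stood apart in immune markers (7210 CPM, against 391 to 1224 CPM in the other KPF and 323 to 674 CPM in the KPYYF libraries), and KPF 4504s in acinar markers (19920 CPM, against at most 992 CPM in the other KPF libraries and 73.4 to 5907 CPM in KPYYF). Fibroblast markers overlapped in sum, at 406 to 5422 CPM in KPF and 1103 to 3051 CPM in KPYYF. Log2 fold changes were positive in 5 of 8, from -1.71 (Col1a2, adjusted p = 0.512) to 2.90 (Pdgfra, adjusted p = 0.105). Endothelial sums, at 7.10 to 50.2 and 6.90 to 14.8 CPM, overlapped only through KPF 4269, as every other KPF library had at least 32.0 CPM. Of 4 endothelial markers tested, 1 was positive. The lowest were Vwf (-6.05, adjusted p = 0.166) and Kdr (-3.40, adjusted p = 0.180), and the groups did not overlap for Kdr. Xist was high in 3 KPF and all 3 KPYYF libraries. Since these are bulk samples, a lower value may stand for fewer cells with a transcript or for less transcript per cell, and the counts do not separate them.

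The promoters of the 3 genes whose KPF and KPYYF levels did not overlap are shown for their CG content, the substrate of these enzymes. They are RefSeq windows of 300 bases (250 before and 50 after a start site, build GRCm38.p6), read 5′ to 3′ on the strand of the gene, with every CG in capitals. Dnmt3l has 3 annotated starts, and Dnmt1 is shown at the one with the most CG of its 3.
Dnmt3l start 1, chr10:78042037-78042336 (+): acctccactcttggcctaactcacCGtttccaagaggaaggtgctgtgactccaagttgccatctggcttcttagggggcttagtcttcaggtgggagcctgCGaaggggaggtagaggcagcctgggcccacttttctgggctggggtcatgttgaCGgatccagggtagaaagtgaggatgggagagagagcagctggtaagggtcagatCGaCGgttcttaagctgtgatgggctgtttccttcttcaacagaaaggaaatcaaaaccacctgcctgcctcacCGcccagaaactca
Dnmt3l start 2, chr10:78049592-78049891 (+): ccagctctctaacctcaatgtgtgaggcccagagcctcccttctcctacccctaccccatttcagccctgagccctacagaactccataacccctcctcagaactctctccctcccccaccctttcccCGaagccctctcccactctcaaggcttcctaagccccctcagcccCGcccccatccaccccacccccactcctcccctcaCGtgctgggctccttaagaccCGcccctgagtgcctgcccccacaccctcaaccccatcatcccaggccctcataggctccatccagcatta
Dnmt3l start 3, chr10:78055085-78055384 (+): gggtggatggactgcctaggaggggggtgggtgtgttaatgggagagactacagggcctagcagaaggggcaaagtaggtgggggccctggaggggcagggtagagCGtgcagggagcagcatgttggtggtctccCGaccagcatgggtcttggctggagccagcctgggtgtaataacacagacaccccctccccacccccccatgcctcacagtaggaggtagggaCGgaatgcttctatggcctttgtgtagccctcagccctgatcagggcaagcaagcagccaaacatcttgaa
Dnmt1, chr9:20952574-20952873 (−): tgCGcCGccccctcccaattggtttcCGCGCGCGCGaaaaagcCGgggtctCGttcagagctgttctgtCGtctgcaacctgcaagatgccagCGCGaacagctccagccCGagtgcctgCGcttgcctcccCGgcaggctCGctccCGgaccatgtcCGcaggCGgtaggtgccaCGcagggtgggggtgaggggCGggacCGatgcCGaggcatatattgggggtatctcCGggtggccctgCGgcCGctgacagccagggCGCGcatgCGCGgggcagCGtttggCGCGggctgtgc
Tdg, chr10:82629588-82629887 (+): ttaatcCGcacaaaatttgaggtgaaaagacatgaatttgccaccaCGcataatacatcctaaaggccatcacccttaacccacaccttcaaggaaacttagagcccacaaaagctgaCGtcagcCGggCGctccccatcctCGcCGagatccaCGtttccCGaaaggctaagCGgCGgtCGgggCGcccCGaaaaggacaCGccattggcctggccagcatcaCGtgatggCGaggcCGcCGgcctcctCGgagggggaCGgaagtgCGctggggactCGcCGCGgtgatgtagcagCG
The Dnmt3l windows held 6, 4 and 3 CG, the Dnmt1 window 33 and the Tdg window 26. Of 32851 RefSeq promoter windows of this length, 94.6% held at least 1 CG, with a median of 7, and 43.6, 31.4 and 23.3% had fewer than the Dnmt3l windows in that order, against 91.4% for the Dnmt1 and 83.1% for the Tdg window. All other windows of the 10 genes held between 2 CG (the Dnmt1 start farthest upstream) and 57 CG (Tet2), with 30 CG at Dnmt3b. These libraries read the 3′ end of transcripts, so they do not show which start was used, and no methylation was measured.

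None of the 9 tested genes differed between KPYYF and KPF cells with an adjusted p under the threshold, in either direction. Across all genes, 0.305% were higher and 0.794% lower in KPYYF cells by that criterion (edgeR's quasi-likelihood test, Benjamini-Hochberg over 14105 genes). Before adjustment, 3 of the 9 (Dnmt1, Dnmt3l and Tdg) were higher in KPYYF cells with p under 0.05, where 6.10% of all genes were, and 0 were lower, where 10% were. With the added demand of more than 2-fold, called the study's rule here because it applies the cutoffs of the study's methods to edgeR's unadjusted p, 2 (Dnmt3l and Tdg) were higher and 0 lower, beside 4.20 and 9.20% of all genes. In the same 3 genes every KPYYF library lay above every KPF library, which held for 3.92% of all genes, and in 0 of the 9 did every KPYYF library lie below, which held for 5.18%. The median log2 fold change was 0.80 over the 9 genes, Dnmt3l and Tdg included, and -0.07 over all genes tested. Dnmt3l (217 counts in all libraries) and Tdg (280) reached the minimum of 100 counts for testing only through their KPYYF counts. Among genes as scarce in KPF cells, only those higher in KPYYF could be tested. These 2 calls, their lack of overlap and their weight in the median are therefore no independent support for a rise.

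**Figure D1:**
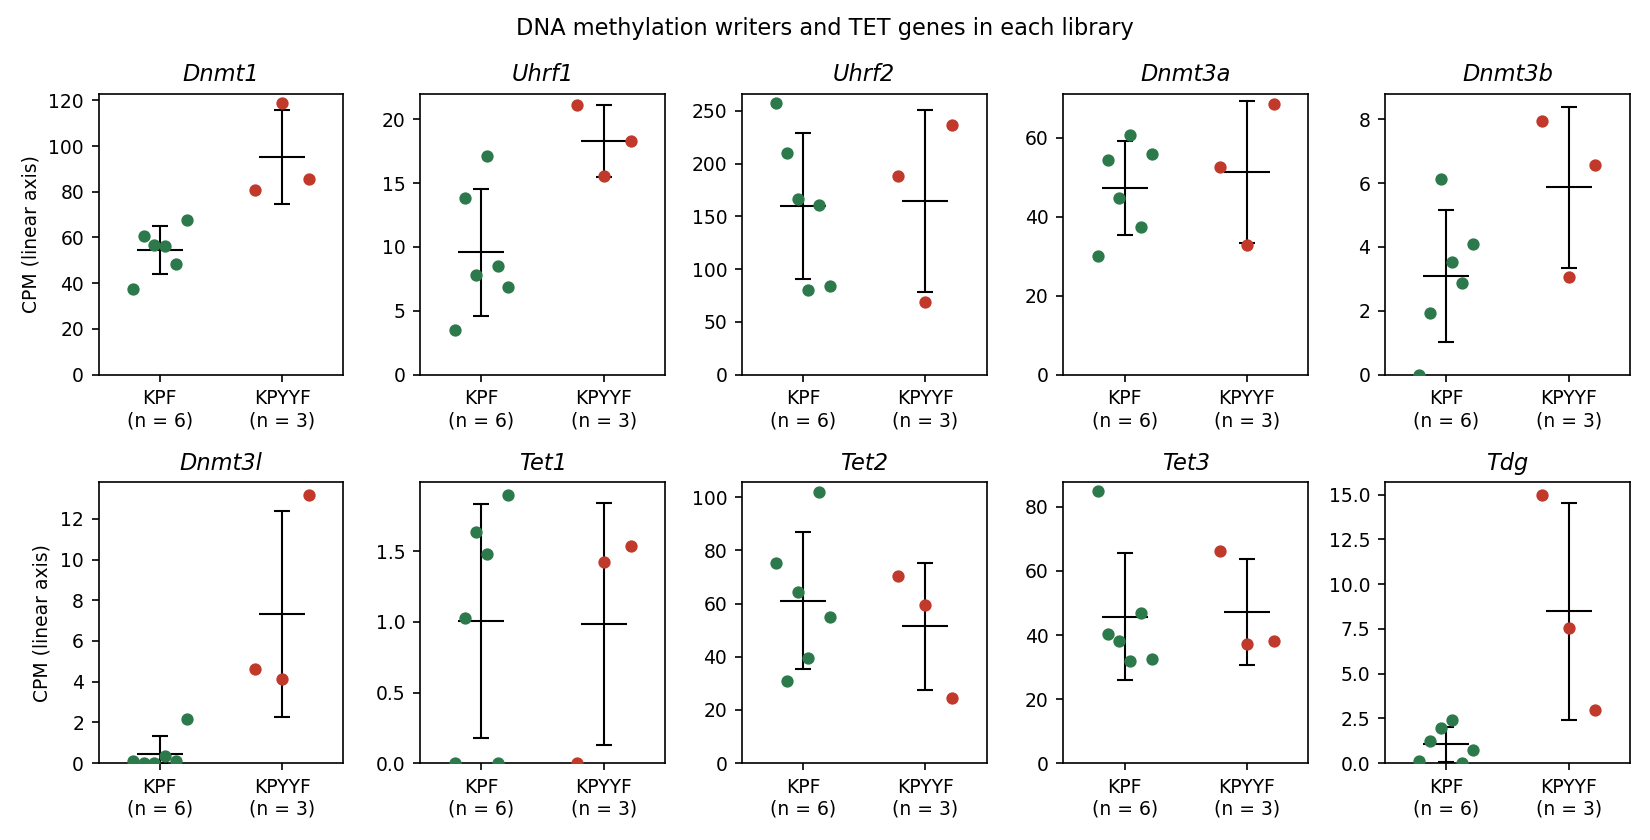
Level of each of the 10 genes in CPM (vertical axis, linear from 0, own scale per panel) in 6 KPF (green) and 3 KPYYF (red) libraries; each point is a library, the line its group mean and the bars 1 SD, stopped at 0. The points of the groups do not overlap for Dnmt1, Dnmt3l and Tdg, and do for the other 7 genes.

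Dnmt1 (ENSMUSG00000004099, chr9:20907209-20959888, minus strand, GRCm38), the maintenance methyltransferase, was at 37.4, 60.9, 56.6, 56.5, 48.3 and 67.5 CPM in KPF libraries 4269, 4435, 4504h, 4504s, 4515 and 4601. In KPYYF libraries 4449, 4891 and 4938 it was at 81.0, 119 and 85.7 CPM. The groups did not overlap, and the lowest KPYYF library lay above KPF 4601, the highest of its group. The means were 54.5 ± 10.5 CPM (SD, n = 6) and 95.2 ± 20.6 CPM (SD, n = 3). The log2 fold change of 0.80 (standard error 0.29, 95% interval 0.19 to 1.42) had an adjusted p = 0.178. A two-sided exact permutation of the libraries over all 84 divisions into 6 and 3 gave p = 0.0238 for the log2 CPM, the smallest it can give. Any gene whose groups do not overlap gets this value, so it repeats the lack of overlap and adds no support. The unadjusted p of the fit stayed under 0.05 in 16 of 17 alternative analyses, and was over it without KPYYF library 4891, the one with the highest level (log2 fold change 0.61, adjusted p = 0.422).

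Uhrf1 (ENSMUSG00000001228, chr17:56303321-56323486, plus strand), which recognizes hemimethylated CG and recruits Dnmt1, was at 3.50, 13.8, 7.77, 17.1, 8.52 and 6.85 CPM in the KPF libraries in the same order. It was at 21.1, 15.5 and 18.3 CPM in the KPYYF libraries. Only KPF 4504s reached into the KPYYF range, above KPYYF 4891. The means were 9.59 ± 4.96 and 18.3 ± 2.81 CPM, and the log2 fold change of 0.93 (standard error 0.57, 95% interval -0.29 to 2.15) had an adjusted p = 0.458. Within the KPF group the highest level was 4.88 times the lowest, against 1.36 times in KPYYF.

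Uhrf2 (ENSMUSG00000024817, chr19:30030513-30093722, plus strand), the paralog of Uhrf1 that does not replace it in maintenance methylation, was at 80.4 to 257 CPM in KPF libraries, with a median of 164 CPM. In KPYYF libraries it was at 188, 69.0 and 237 CPM. The groups overlapped over nearly their whole range, and KPYYF 4891, highest for Dnmt1, was the lowest of all 9 for Uhrf2. The log2 fold change was 0.04 (95% interval -0.90 to 0.99, or 0.536- to 1.98-fold, adjusted p = 0.978), so a difference of either direction within that interval remains compatible with these libraries. Of the Uhrf1 and Uhrf2 counts together, Uhrf1 made up 1.34 to 17.5% in KPF and 7.17 to 18.4% in KPYYF libraries.

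The partners of maintenance methylation were described from a list of 13 genes, of which 12 were tested. None passed the adjusted threshold in either direction, and 1 passed the study's rule, in the higher direction. This was Pclaf, a PCNA-binding factor whose ubiquitinated form recruits Dnmt1 to replicating DNA, at 3.32 to 54.5 CPM in KPF and 70.7 to 98.1 CPM in KPYYF (log2 fold change 1.51, adjusted p = 0.259). Hdac1, a histone deacetylase found in complexes with Dnmt1, had the lowest log2 fold change of the list, -1.36 (adjusted p = 0.446), with overlapping groups. Its paralog Hdac2, named after its values were seen, was at 25.1 to 49.7 CPM in KPF and 65.8 to 90.4 CPM in KPYYF (log2 fold change 0.95, adjusted p = 0.149), without overlap. The summed level of all 13 genes of the list was 644 to 769 CPM in KPF and 867 to 980 CPM in KPYYF libraries and did not overlap. Dppa3, which keeps Uhrf1 off DNA in oocytes, had 10 counts in all and was not tested.

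Because Dnmt1, Uhrf1 and Pclaf are made mostly in dividing cells, a list of 18 proliferation genes was set beside them, of which Pcna was also among the partners of maintenance methylation. All 18 were tested and 17 had a positive log2 fold change, with a median of 0.83. Cdt1, which licenses replication origins, rose from 30.8 ± 2.97 CPM (SD, n = 6) to 83.7 ± 28.2 CPM (SD, n = 3), with a log2 fold change of 1.44 and an adjusted p = 0.0357, the only one past the adjusted threshold. That call was lost in 8 of the 9 fits with a library left out, with KPF 4504h and 4504s summed, and in the high-Xist libraries alone (log2 fold change at least 1.13 and adjusted p up to 0.172 with a library left out, both without KPYYF 4891). By the study's rule 6 were higher (Cdt1, Ccna2, Ccnb1, Top2a, Mcm5 and Cdc6) and 0 lower, beside 4.20 and 9.20% of all genes. The cyclin gene Ccna2 was at 7.10 to 31.8 CPM in KPF and 61.7 to 87.6 CPM in KPYYF libraries (adjusted p = 0.0514), and the mitotic cyclin gene Ccnb1 at 8.31 to 43.5 and 70.2 to 112 CPM (adjusted p = 0.0674). The sum of the list was 572 to 1208 CPM in KPF and 1413 to 1814 CPM in KPYYF libraries. The part of proliferation in the Dnmt1 and Uhrf1 values was not tested.

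**Figure D2:**
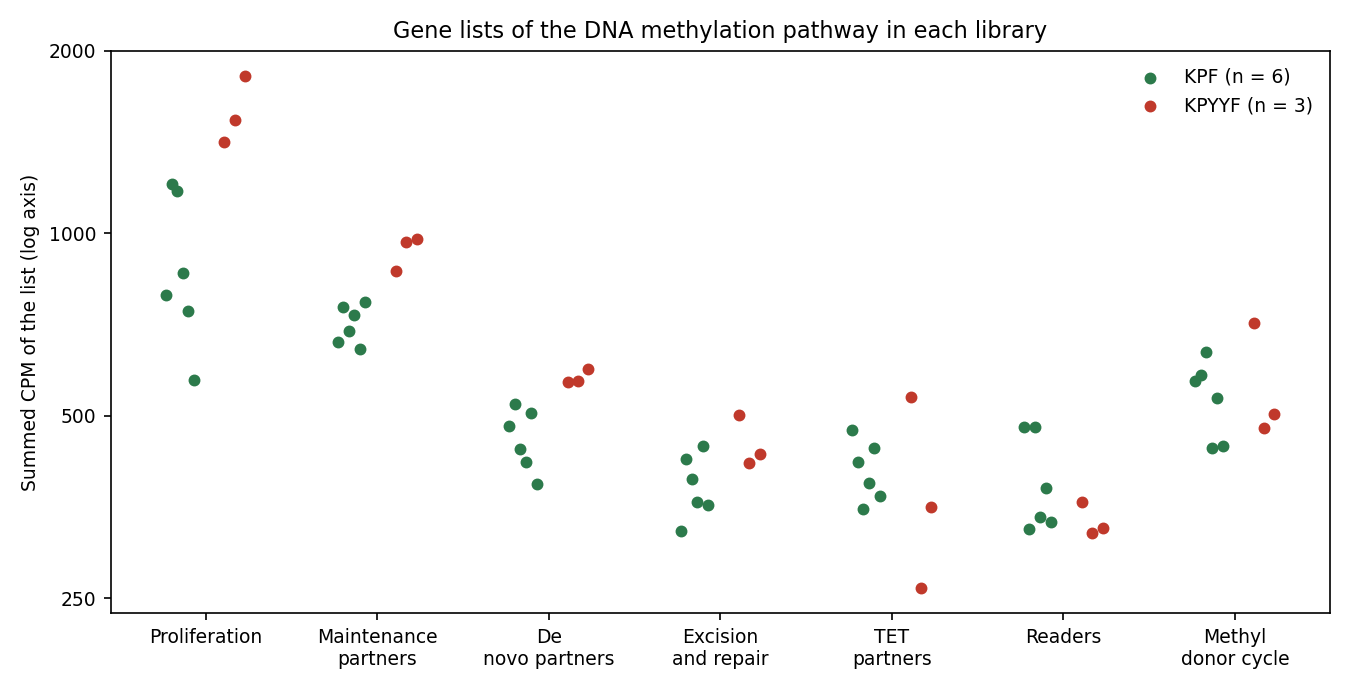
Summed CPM (vertical axis, log scale) of 7 gene lists in each of 6 KPF (green) and 3 KPYYF (red) libraries, 1 point per library. The groups do not overlap for proliferation (572 to 1208 against 1413 to 1814 CPM), partners of maintenance methylation and partners of de novo methylation, and overlap for the other 4 lists.

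Dnmt3a (ENSMUSG00000020661, chr12:3806007-3914443, plus strand), the main de novo methyltransferase of adult cells, was at 30.0, 54.3, 44.7, 60.7, 37.5 and 56.0 CPM in the KPF libraries. It was at 52.6, 32.8 and 68.6 CPM in the KPYYF libraries, so that these held the highest and the second lowest level of all 9. The means of 47.2 ± 11.9 CPM (SD, n = 6) and 51.3 ± 17.9 CPM (SD, n = 3) gave a log2 fold change of 0.12 (95% interval -0.63 to 0.87, adjusted p = 0.912).

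Dnmt3b (ENSMUSG00000027478, chr2:153649450-153687730, plus strand), the de novo enzyme of the early embryo, had 0, 19, 60, 31, 26 and 28 counts in the KPF and 67, 28 and 60 counts in the KPYYF libraries. This was 0, 1.95, 6.13, 3.53, 2.88 and 4.08 CPM against 7.96, 3.06 and 6.58 CPM. KPYYF 4449 and 4938 lay above all KPF libraries, and KPYYF 4891 among them. KPF 4269 had no read, which at its depth allows up to 3 counts, or 0.292 CPM, counting error only. The log2 fold change was 0.92 (95% interval -1.68 to 3.52, adjusted p = 0.777).

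The share of Dnmt3b among the reads of Dnmt3a and Dnmt3b is free of library scaling. It was 0, 3.46, 12.1, 5.50, 7.12 and 6.80% in the KPF and 13.1, 8.54 and 8.75% in the KPYYF libraries. The 95% Wilson intervals cover counting error only, not the spread between libraries. They take each read as a separate molecule, although reads were counted without molecular identifiers. They reached 1.23% in KPF 4269. They were 9.50 to 15.2% in KPF 4504h and 10.5 to 16.4% in KPYYF 4449, which overlap. KPF 4504s, with the same mouse number as 4504h, was at 5.50% (3.90 to 7.70%), below the interval of 4504h.

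**Figure D3:**
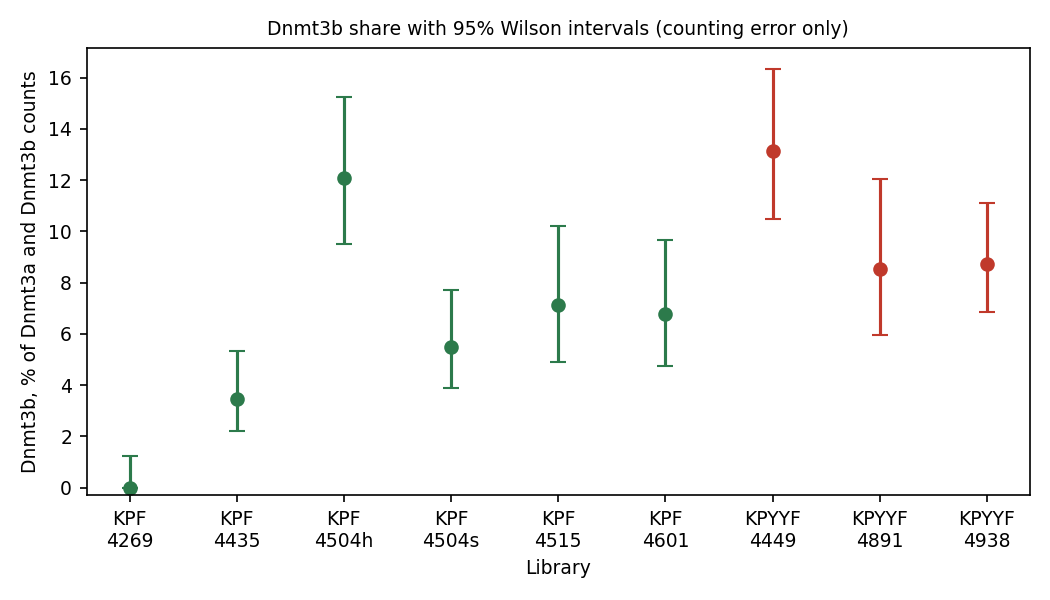
Dnmt3b reads as a percent of Dnmt3a and Dnmt3b reads (vertical axis) in each library (horizontal axis), KPF in green and KPYYF in red, with 95% Wilson intervals. KPF runs from 0 to 12.1% and the 3 KPYYF libraries, at 8.54 to 13.1%, lie within or just above that range.

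Dnmt3l (ENSMUSG00000000730, chr10:78041947-78063622, plus strand), the cofactor without catalytic activity, had 1, 0, 0, 3, 1 and 15 counts in the KPF and 39, 38 and 120 counts in the KPYYF libraries. The levels were 0.0973, 0, 0, 0.342, 0.111 and 2.19 CPM in KPF, and 4.63, 4.16 and 13.2 CPM in KPYYF. Every KPYYF library was above every KPF library, and of the KPF libraries only 4601, the one rich in immune markers, exceeded 3 counts. The log2 fold change was the largest of the 9 genes, 4.00 (standard error 1.56, 95% interval 0.63 to 7.37), with an adjusted p = 0.222, and the exact permutation p was 0.0238. It was 5.94 without KPF 4601 (adjusted p = 0.102), and 3.26 without KPYYF 4938 (adjusted p = 0.450), where the unadjusted p was over 0.05. In the high-Xist libraries alone it was 5.90 (adjusted p = 0.260). Its unadjusted p was under 0.05 in 16 of 17 alternatives and its adjusted p in 0, with a range from 0.0750 with DESeq2 to 0.450. Its last 500 bases shared no stretch of 50 bases with another gene, and the Aire gene on the opposite strand, which overlaps it by 67 exon bases away from its 3′ end, had no count.

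Dnmt3b and Dnmt3l are markers of pluripotent cells, so 10 other such markers were examined. Of these, 7 had no count in any library, Pou5f1 and Zfp42 among them, and none reached the test. Nanog had 51 counts, all in KPYYF 4449, Lin28a had 10 and Tdgf1 had 3. The sum of the list was 0 to 1.75 CPM in KPF and 0 to 6.06 CPM in KPYYF libraries, and was 0 in KPYYF 4891 and 4938, where Dnmt3l was at 4.16 and 13.2 CPM. The list did not hold Sox2, which the study counts among pluripotency or progenitor factors. It reports Sox2 as high in Tm+Yap− cells and hardly detected in GFP+Yap+ cells, so the list does not stand for all such factors.

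Genes that direct de novo and imprinted methylation were taken from a list of 8, all tested, of which none passed the adjusted threshold. Zfp57, a KRAB zinc finger protein that holds methylation at imprinted regions, was at 0.775 to 5.42 CPM in KPF libraries. In KPYYF libraries it was at 0 to 0.119 CPM, with at most 1 count in each. Its log2 fold change was -5.28 (adjusted p = 0.148), which was lower by the study's rule. Zfp57 reached the minimum of counts for testing only through its KPF counts. Among genes as scarce in KPYYF cells, only those higher in KPF could be tested. The Zfp57 call and its lack of overlap are therefore no independent support for a fall. Zfp445, which shares the imprinting role of Zfp57, had the highest log2 fold change of the list, 1.91 (adjusted p = 0.643). It was at 0.0973 to 4.81 CPM in KPF and 14.5, 0.109 and 0 CPM in KPYYF libraries. Without KPYYF 4449, which held all but 1 of its KPYYF counts, the Zfp445 value was -4.24, and with limma-voom it was -2.07. Of 16 germline genes that promoter methylation keeps silent in body tissues, 5 had no count and 4 were tested. Tdrd1 was higher by the study's rule (log2 fold change 6.52, adjusted p = 0.148), but 121 of its 123 counts came from KPYYF 4449, and without that library the value was -1.92. Asz1 had the lowest value of that list, -2.22 (adjusted p = 0.576), and -1.11 without KPF 4515, which held 213 of its 376 counts.

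Tet2 (ENSMUSG00000040943, chr3:133463679-133545139, minus strand) was at 31.0 to 102 CPM in KPF libraries, with a median of 59.6 CPM, and at 70.2, 59.5 and 24.4 CPM in KPYYF libraries. The lowest level of all 9 was in KPYYF 4938 and the highest in KPF 4515. The log2 fold change was -0.25 (95% interval -1.19 to 0.68, adjusted p = 0.841). Tet3 (ENSMUSG00000034832, chr6:83362373-83459084, minus strand) was at 31.8 to 84.8 CPM in KPF libraries, with a median of 39.2 CPM, and at 66.1, 37.1 and 38.0 CPM in KPYYF libraries. It was highest in KPF 4269 and next in KPYYF 4449, and its log2 fold change was 0.04 (95% interval -0.80 to 0.88, adjusted p = 0.978).

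Tet1 (ENSMUSG00000047146, chr10:62804570-62908996, minus strand), the TET enzyme of pluripotent cells, had 0, 10, 16, 13, 0 and 13 counts in the KPF and 0, 13 and 14 counts in the KPYYF libraries. Its level was at most 1.90 CPM in any library, and the groups overlapped fully. The two-sided exact permutation p of its log2 CPM was 0.905. Among the counts of the 3 TET genes, Tet1 took 0 to 2.40% in any library, and Tet3 took 31.6 to 55.8% in KPF and 37.8 to 59.4% in KPYYF libraries, in which these shares overlapped.

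Of 8 partners of the TET enzymes, all tested, none passed the adjusted threshold and 1 was lower by the study's rule. Idh1, which makes the 2-oxoglutarate that TET enzymes use, was at 110 to 228 CPM in KPF and 53.7 to 84.5 CPM in KPYYF (log2 fold change -1.16, adjusted p = 0.116). Cxxc4, which binds Tet2, had the lowest value of that list, -1.19 (adjusted p = 0.707).

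Tdg (ENSMUSG00000034674, chr10:82629828-82650799, plus strand), the glycosylase that removes oxidized methylcytosine, had 1, 12, 19, 21, 0 and 5 counts in the KPF and 126, 69 and 27 counts in the KPYYF libraries. The levels were 0.0973, 1.23, 1.94, 2.39, 0 and 0.729 CPM in KPF and 15.0, 7.55 and 2.96 CPM in KPYYF. The groups did not overlap, with KPYYF 4938 just above KPF 4504s. The log2 fold change of 2.98 (standard error 1.29, 95% interval 0.19 to 5.77) had an adjusted p = 0.272, and the exact permutation p was 0.0238. The unadjusted p was under 0.05 in 12 of 17 alternatives, and the value was 2.29 (adjusted p = 0.493) without KPYYF 4449 and 2.19 (adjusted p = 0.498) in the high-Xist libraries alone. The counts of Tdg are uncertain. Of the stretches of 50 bases in the last 500 bases of its transcripts, 68.4% also occur in other genes (Tdg-ps, Gm9855, Gm5597, AC122846.1 and Glt8d2), against at most 3.10% for the other 9 genes, and reads without a unique alignment, 43.8 to 48.5% in KPF and 49.2 to 53.4% in KPYYF libraries, were not counted. Glt8d2, on the opposite strand, overlaps 367 bases of its 3′ exons and had 29 counts in KPF and 7 in KPYYF libraries, and whether strand was used in counting is not given in the sources used here.

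Base excision repair and related genes were taken from a list of 13, all tested. None passed the adjusted threshold, while 2 were higher and 2 lower by the study's rule. The glycosylase genes Neil2, at 0.102 to 4.71 CPM in KPF and 8.07 to 15.1 CPM in KPYYF libraries, and Neil3, at 0 to 2.77 and 6.47 to 16.0 CPM, were the higher ones (log2 fold changes 2.58 and 3.02, adjusted p = 0.207 and 0.224). Gadd45a and Gadd45b, stress response genes also linked to active demethylation, were the lower ones (log2 fold changes -1.92 and -1.53, adjusted p = 0.185 and 0.127). Gadd45b was at 42.7 to 189 CPM in KPF and 25.9 to 34.0 CPM in KPYYF libraries.

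Among 8 readers of methylated DNA, 0 were higher or lower by either rule, with log2 fold changes from -0.88 (Mbd1, adjusted p = 0.463) to 1.22 (Mbd4, adjusted p = 0.437). Of 9 genes of the methyl donor cycle, 7 were tested and 1 was lower by the study's rule. This was Nnmt, which uses up methyl groups on nicotinamide, at 0.0973 to 46.9 CPM in KPF and 0.110 to 2.08 CPM in KPYYF (log2 fold change -4.19, adjusted p = 0.238). The highest value of that list was 0.97, of the methionine synthase reductase gene Mtrr (adjusted p = 0.455). Over these lists of partners, readers, repair, donor and germline genes together, 60 of 75 genes were tested, 4 (6.7%) were higher and 5 (8.3%) lower by the study's rule, beside the 4.20 and 9.20% of all genes given above. Of the higher genes, Neil3 and Tdrd1, and of the lower genes, Zfp57 and Nnmt, were tested only through the counts of the group where they were higher.

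**Figure D4:**
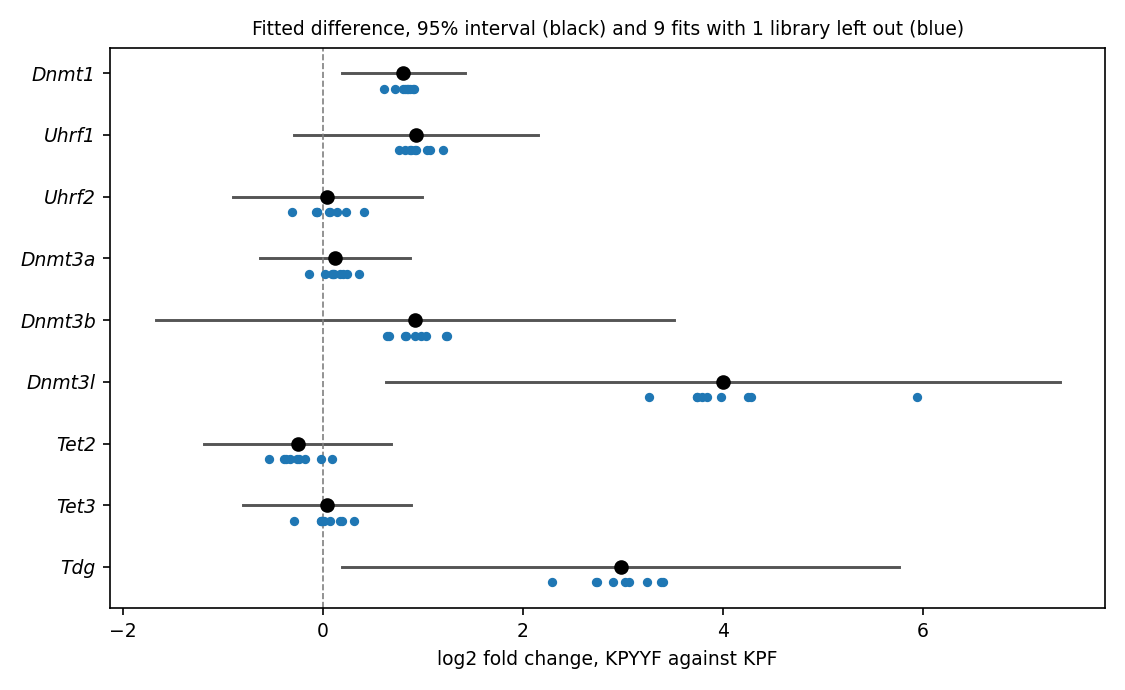
Log2 fold change of KPYYF against KPF (horizontal axis) for the 9 tested genes, with the fitted value (black point), its 95% interval (line) and the values of 9 fits that each left out 1 library (blue points). The interval lies above 0 for Dnmt1, Dnmt3l and Tdg, is widest for Dnmt3l (0.63 to 7.37), and the blue points fall on both sides of 0 for Uhrf2, Dnmt3a, Tet2 and Tet3.

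Compared library by library, the 10 genes did not share one order. KPF 4269 was the lowest of all 9 libraries for Dnmt1, Uhrf1, Dnmt3a and Dnmt3b, and the highest for Uhrf2 and Tet3. Its proliferation sum, 791 CPM, lay within the range of the KPF group, 572 to 1208 CPM, and was not the lowest of it. KPYYF 4938 held the highest Dnmt3l and Dnmt3a and the lowest Tet2, KPYYF 4449 the highest Uhrf1, Dnmt3b and Tdg, and KPYYF 4891 the highest Dnmt1 and lowest Uhrf2.

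**Figure D5:**
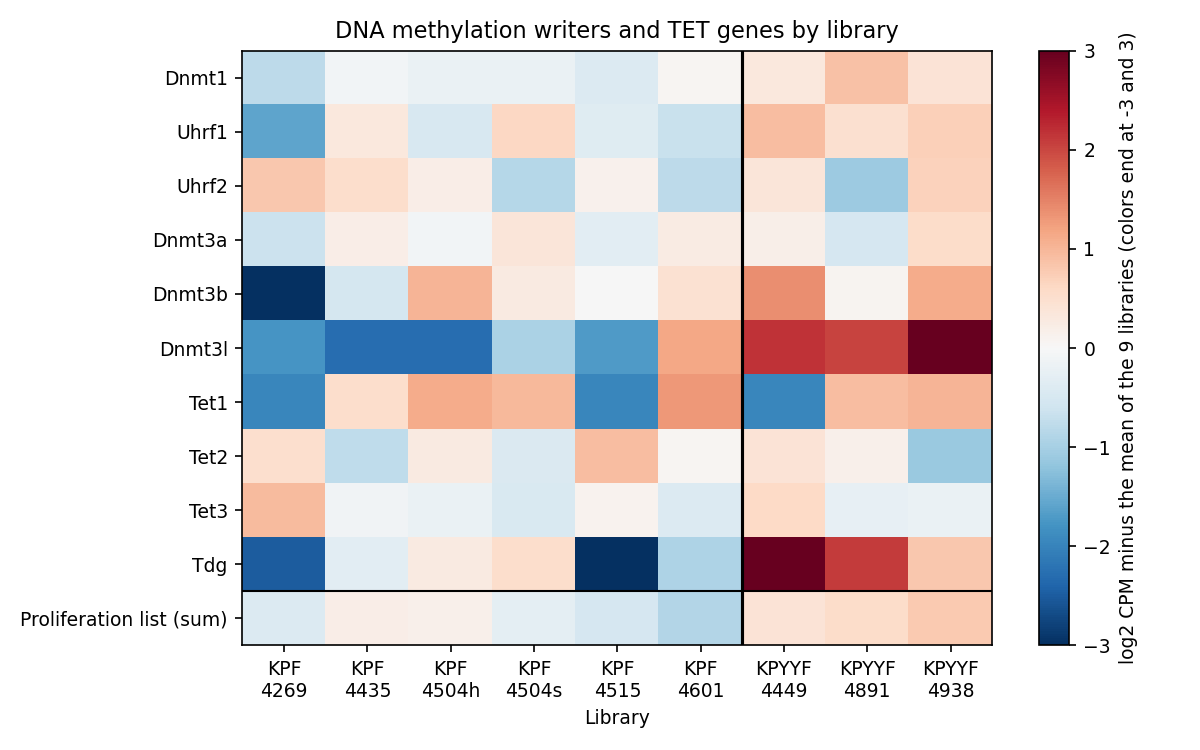
Log2 CPM of each gene minus its mean over the 9 libraries (color, from blue below to red above the mean, ending at -3 and 3), with the libraries as columns and the proliferation sum as the last row. The Dnmt1, Dnmt3l and Tdg rows are higher to the right of the line between KPF and KPYYF, and KPF 4269 is the lowest column for Dnmt1, Uhrf1, Dnmt3a and Dnmt3b.

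The genes most like Dnmt1, Uhrf1, Dnmt3b and Dnmt3l over the 9 libraries were found by the mean absolute difference of centered log2 CPM, as a description. For Dnmt1 they were Uchl5, Bola1 and Cnnm3, with differences of 0.0909 to 0.138, where the median over 9542 genes was 0.649. For Uhrf1 they were Nle1, Jpt2 and Tmem39b (0.265 to 0.290, median 0.841), and for Dnmt3b Sorcs2, Ercc6l2 and Cip2a (0.303 to 0.390, median 1.15). For Dnmt3l the nearest was Gt(ROSA)26Sor, the transcript of the Rosa26 locus at which the study's reporter and CreER alleles lie, at 1.44 to 3.35 CPM in KPF and 24.6 to 82.6 CPM in KPYYF libraries, with a difference of 0.741 (median 2.02). Mettl13 (0.924) and the DNA sensor gene Aim2 (0.929) followed.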

How the data were processed

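RNA of FACS-sorted GFP+Yap+ cells (KPF, 6 libraries) and Tm+Yap− cells (KPYYF, 3 libraries) was made into Lexogen QuantSeq 3′ forward libraries. The raw counts per Ensembl gene were deposited by the authors, 1 table per library, and the submitters' processing notes name STAR, HTSeq and mm10. Versions, annotation and strand setting are not given in the sources used here, and the study's methods text describes array hybridization, which the counts do not match. Reads not unique (43.8 to 53.4%), on no feature (8.63 to 16.0%) or ambiguous (0.231 to 0.312%) were left out of library sizes. Symbols came from GENCODE M21 (47224 of 47643 genes matched). The 14105 genes with 100 or more counts in all were normalized by TMM, and the groups were compared by the robust quasi-likelihood fit of edgeR 4.0.16 (R 4.3.3), without covariates, two-sided, with Benjamini-Hochberg adjustment over all of them and a threshold of 0.05. The study's rule, as called here, was a p under 0.05 and over 2-fold. The study applied these cutoffs to DESeq2 and does not say whether p was adjusted, and here they were applied to edgeR's unadjusted p. Log2 CPM used a prior count of 2. Nothing states that libraries came from separate mice except the mouse numbers, and KPF 4504h and 4504s share one, so p-values measure the spread between libraries. At 8116539 to 9635514 reads on genes, 3 counts, taken as the limit of a count of 0, were 0.292 to 0.437 CPM. RefSeq promoters covered all 10 genes (17 windows). The genes and lists were chosen with earlier results of these data known. Genes of a list were named when they passed the study's rule or were its extremes, and for Dnmt1, Uhrf1, Dnmt3b and Dnmt3l the 3 nearest of the genes with a mean of at least 10 CPM in a group and a regular symbol. Hdac2, Pou5f1, Zfp42, Nanog, Lin28a, Tdgf1 and Dppa3 were named after their values were seen. An allele that both groups share and the highest value among the TET partners are not reported here. Scripts were tested on simulated data. Alternatives were DESeq2 1.42.0, limma-voom 3.58.1 with quality weights, RLE and upper quartile factors, no filter, filterByExpr, 4504h and 4504s summed, each library left out, and high-Xist libraries alone, 17 in all, with a prior count of 0.5 and RLE scaling for single-gene log2 CPM.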

Additional observations from a re-analysis of the deposited data

Results flagged for a closer look

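In the KPF group, Dnmt3b in library 4269 was far from the other 5, at 0.0 CPM (no read), with a gap to the next library of 0.68 of the whole range on the log2 scale, above Dixon's 95% critical value for 6 samples. Chance flags about 1 in 20 groups, and 10 genes were examined. Without 4269 the log2 fold change of Dnmt3b was 0.66.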

How the results depend on the processing

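None of the 9 tested genes had an adjusted p under 0.05 in any alternative. Of the alternatives for their fitted fold changes and single-gene log2 CPM, 155 kept direction and side of the threshold and 18 reversed, all in genes with differences near 0. Dnmt3a was -0.0179 with limma-voom and -0.0326 in the high-Xist libraries (left-out libraries: -0.14 to 0.36), Uhrf2 -0.0226 with 4504h and 4504s summed (-0.31 to 0.41), Tet2 0.21 in the high-Xist libraries (-0.54 to 0.0845) and Tet3 -0.0255 with 4504h and 4504s summed (-0.29 to 0.31). Differences of mean log2 CPM were 0.00183 (prior count 0.5) and 0.0166 (RLE) for Tet1 and 0.011 (RLE) for Uhrf2. Among list genes, limma-voom reversed Cdh5 (-1.10), Pnlip (-1.55) and Zfp445 (-2.07), and the high-Xist libraries reversed Cdh5 (-0.47) and Ptprc (0.17). With a library left out, Cdh5 ran from -1.87 to 0.54, Ctrb1 from -6.07 to 1.45, Pnlip from -4.69 to 5.54, Tdrd1 from -1.92 to 7.14 and Zfp445 from -4.24 to 3.01.

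Of the 9 tested genes, 1 to 3 were higher at an unadjusted p under 0.05 with a library left out (1 without KPYYF 4891), and 1 to 2 by the study's rule (1 without KPF 4435, KPF 4601 or any KPYYF library, and 1 in the high-Xist libraries). Pathway list genes by that rule numbered 2 to 6 higher and 3 to 5 lower, the fewest without KPYYF 4938. Over all genes, 43 were higher and 112 lower at an adjusted p under 0.05, against 269 and 928 with DESeq2, 88 and 219 without a filter, 7 and 38 in the high-Xist libraries, 25 higher with 4504h and 4504s summed and 39 lower with limma-voom. With a library left out they ran from 6 (without KPF 4435) to 75 (without KPYYF 4449) higher and from 13 (without KPYYF 4938) to 194 (without KPYYF 4449) lower. By the study's rule, 592 were higher and 1204 without a filter, where 22925 genes were tested. Apart from the added or dropped genes and samples, the cause was not tested. The low counts of Dnmt3b, Dnmt3l, Tet1 and Tdg limit their precision. No paired analysis was possible because the labels give no replicate numbers, and the mouse numbers of the groups are all different.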
